A study of Mus musculus with 23 samples.

Results

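The mitochondrial ribosomal protein genes of mouse, those with the symbols Mrps (small subunit series) and Mrpl (large subunit series), were followed in hearts collected before and after isoproterenol or lipopolysaccharide. Members were the protein-coding genes whose symbol is Mrps or Mrpl, a number and at most 1 further letter, which gave 78 genes (29 Mrps and 49 Mrpl symbols) of 21974 protein-coding genes and 55487 gene identifiers in the files. All 78 passed the filter on low counts, among 15732 genes tested. The animals were female wild-type C57BL/6J mice 10 weeks old, and whole hearts, labelled as holding various cell types, were used for poly-A RNA sequencing. Isoproterenol (ISO), a beta-adrenergic agonist, was given at 300 mg/kg and lipopolysaccharide (LPS), which comes from the outer membrane of bacteria and triggers inflammation, at 2.5 mg/kg. Each agent had its own untreated baseline group (4 libraries each), and hearts were taken at day 1 (3 libraries for ISO, 4 for LPS) and day 7 (4 libraries each), 23 libraries in all. No vehicle-injected group was analysed here.

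The mitochondrial ribosome translates the few messages that the mitochondrial genome encodes, all of them for subunits of the respiratory chain and ATP synthase. Its RNAs come from mitochondrial DNA, whereas every protein of its small and large subunits is encoded in the nucleus, made on cytosolic ribosomes and imported. Some of these proteins have counterparts in bacterial ribosomes and others are particular to mitochondria. Heart muscle is rich in mitochondria and depends on their respiration.

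By the ribosomal protein nomenclature, 26 members belong to the small subunit, 16 with a bacterial counterpart and 10 specific to mitochondria. Another 51 belong to the large subunit, 30 with a bacterial counterpart and 21 specific to mitochondria, and this set includes Mrps30 and Mrps18a in spite of their symbols. The product of the remaining member, Mrps36, is now known as a component of the 2-oxoglutarate dehydrogenase complex. Per unit of length, members differed widely at all times. Mean TPM (an abundance corrected for gene length and depth) over all libraries was highest for Mrpl42 at 330, Mrps21 at 225, Mrpl30 at 151, Mrpl51 at 148, Mrps23 at 107 and Mrpl12 at 107. It was lowest for Mrpl1 at 8.73, Mrpl47 at 9.84, Mrpl19 at 12.4, Mrps22 at 12.4, Mrps30 at 14.8 and Mrps10 at 15.3.

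The libraries held 20910394 to 30368985 reads assigned to genes, of which 55213 to 87985 fell on the 78 members, and the lowest count of a member in any library was 139, for Mrpl47. Within groups the members varied little, with a median coefficient of variation between 5.09% and 8.07% across the 6 groups. Over all genes tested it was 8.36% to 14.6%, and those genes were not matched to the members for read count. Exons of another gene overlap those of 28 members on the opposite strand and of 8 on the same strand, and 3 members have a detected pseudogene of the same name, of which Mrpl23-ps1 held a mean of 818 reads. Markers of heart muscle cells were high in every library. The 4 LPS day 1 libraries fell into pairs (replicates 1 and 2 against 3 and 4), and ISO day 7 replicate 3 held the highest summed fibroblast markers of its group, 1452 CPM. Values per gene are given below as CPM (read counts scaled to a common library size, after TMM scaling for composition), and changes as log2 differences ± SE from edgeR's quasi-likelihood test, called at a Benjamini-Hochberg adjusted p under 0.05.

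At day 1 the summed share of reads on the members was lower after both agents, and at day 7 it overlapped its baseline. At ISO baseline the members took 0.30003%, 0.289%, 0.286% and 0.293% of reads, and at ISO day 1 they took 0.246%, 0.243% and 0.252%. At LPS baseline the shares were 0.304%, 0.299%, 0.299% and 0.296%, and at LPS day 1 they were 0.245%, 0.242%, 0.257% and 0.254%. Every day 1 library lay below every baseline library of its agent. At day 7 the shares were 0.277%, 0.299%, 0.278% and 0.287% after ISO and 0.327%, 0.304%, 0.310% and 0.296% after LPS, and both sets overlapped their baseline. Group means were 0.292 ± 0.00587% (SD, n = 4), 0.247 ± 0.00442% (n = 3) and 0.285 ± 0.0100% (n = 4) for ISO baseline, day 1 and day 7, and 0.299 ± 0.00373%, 0.249 ± 0.00712% and 0.309 ± 0.0133% (n = 4 each) for LPS. The higher LPS day 7 mean depends on the denominator: reads from mitochondrial DNA averaged 28.3% at LPS baseline and 24.7% at LPS day 7, the members' mean share of nuclear reads was 0.417% and 0.410%, and their summed CPM after TMM scaling were 3025 and 2798. Summed TPM of the members gave the same order as the share of all reads, with means of 3995, 3542 and 3926 for ISO and 4204, 3630 and 4486 for LPS. The ratio of small to large subunit summed TPM lay between 0.429 and 0.452 in the 6 group means. The ISO day 1 libraries, at 0.448, 0.448 and 0.460, were above every ISO baseline library (0.429 to 0.438), and the LPS day 1 libraries (0.423 to 0.460) overlapped their baseline (0.431 to 0.439).

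**Figure D1:**
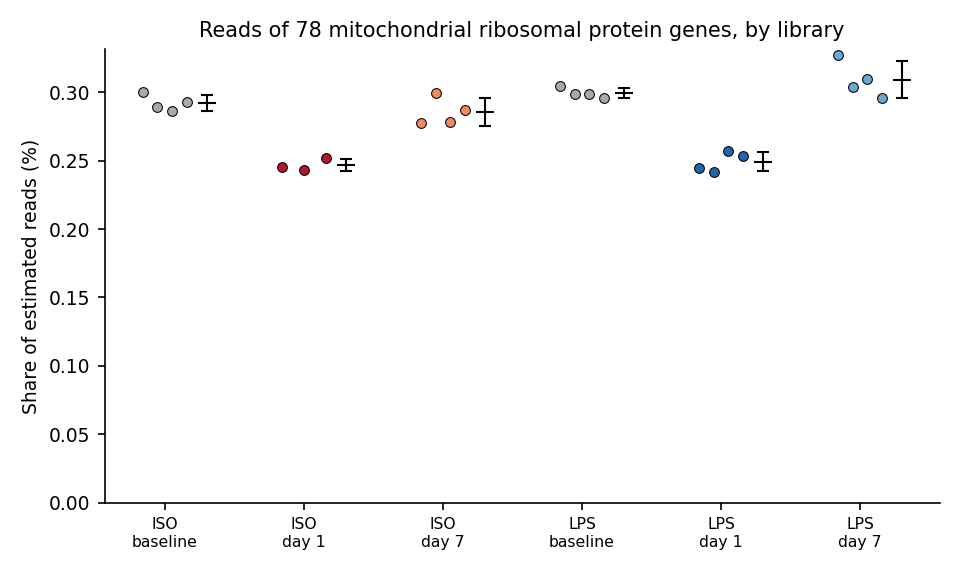
Share of reads on the 78 members (vertical axis, percent of reads assigned to genes) in each library (points), by group, with the group mean and SD. The day 1 libraries of both agents lie between 0.242% and 0.257%, below all baseline libraries.

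After ISO, most members that changed at day 1 were lower. Of 78 members, 46 fell and 10 rose, while 22 were not called. Over all genes tested, 65.7% were called, 32.8% lower and 32.9% higher. The median log2 change of the members was -0.28, beside -0.01 over all genes. Single members ranged from -1.29 to 1.33, 11 of the 56 called changed by at least 1.5-fold and 3 by at least 2-fold. Matching counts by fold over all genes are not given here. Summed CPM of 8 heart muscle markers were 72486 to 77460 at ISO baseline and 54124 to 72500 at ISO day 1. In the same groups summed CPM of 5 neutrophil markers were at most 0.148 and 3.42 to 7.80, with Ly6g and Cxcr2 at 0 in every ISO baseline library, and 5 macrophage markers summed to 74.1 to 85.1 and 56.6 to 57.3. Single markers did not all follow the sums. Of 8 heart muscle markers 5 were called lower and 1 higher, and of 5 macrophage markers 3 lower and 1 higher. All 4 neutrophil markers tested were called higher. The part of these cells in the members' changes was not tested, and in whole hearts fewer cells of a type and less RNA per cell cannot be told apart.

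Both subunits took part in the ISO day 1 changes. In the small subunit 14 of 26 members fell and 5 rose, with a median of -0.22. Of those with a bacterial counterpart, 8 of 16 fell and 3 rose (median -0.18), and of the mitochondria-specific ones 6 of 10 fell and 2 rose (median -0.25). In the large subunit 31 of 51 fell and 5 rose, with a median of -0.29, made up of 19 of 30 with a bacterial counterpart that fell and 4 that rose (median -0.30), and 12 of 21 mitochondria-specific ones that fell and 1 that rose (median -0.28). Mrps36 fell by 0.55 (adjusted p = 5.63e-06), and it fell by 0.46 at LPS day 1 (adjusted p = 1.94e-05).

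Among small subunit members the ISO day 1 change was largest for Mrps18b (chr17:35910379-35916389, minus strand), which encodes a protein related to bacterial S18. Its CPM were 22.02, 20.1, 21.6 and 19.9 at ISO baseline, 51.9, 54.3 and 51.2 at day 1 and 19.2, 21.4, 17.6 and 20.3 at day 7. All 3 day 1 libraries were above every baseline and day 7 library. The day 1 change was 1.33 ± 0.08, or 2.51-fold higher (adjusted p = 3.5e-12). Of its 2089 exonic bases 638 overlap Gm16279 on the opposite strand, which averaged 0.438 CPM. Its paralogues, whose products occupy other places in the ribosome, were not called: Mrps18a gave -0.04 (adjusted p = 0.672) and Mrps18c -0.08 (adjusted p = 0.544). Also higher were Mrps34, a mitochondria-specific protein, by 0.43 (adjusted p = 3.18e-05), and Mrps10, a protein with a bacterial counterpart, by 0.39 (adjusted p = 0.000383). Mrps34 exons overlap those of Mapk8ip3 on the opposite strand over 1309 bases and of Nme3 on the same strand over 763 bases, and whether reads were counted by strand is not given in the sources used here. Of those that fell, Mrps16, with a bacterial counterpart, gave -0.62 (adjusted p = 2.28e-07) and Mrps35, mitochondria-specific, gave -0.60. Mrps12, the counterpart of the bacterial protein at the decoding centre, measured 29.2, 31.7, 30.7 and 28.1 CPM at baseline and 22.1, 20.2 and 23.8 at day 1. The groups did not overlap, and the change was -0.44 (adjusted p = 8.36e-06).

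In the large subunit the largest fall was that of Mrpl39 (chr16:84717576-84735742, minus strand), a mitochondria-specific protein. It measured 48.6, 50.9, 45.8 and 44.6 CPM at ISO baseline, 18.7, 19.0 and 20.5 at day 1 and 46.8, 48.7, 38.3 and 46.2 at day 7. Every day 1 library was well below the others. The day 1 change was -1.29 ± 0.08, or 2.44-fold lower (adjusted p = 9.75e-12). Mrpl49 (chr19:6053622-6057785, minus strand), also mitochondria-specific, measured 29.9, 27.0, 23.9 and 24.5 CPM at baseline and 12.6, 11.8 and 13.7 at day 1. Again the groups did not overlap, and the change was -1.05 ± 0.09 (adjusted p = 1.08e-09). Of the members with a bacterial counterpart, Mrpl36 fell by 0.77 (adjusted p = 1.53e-08), Mrpl3, near the peptidyl transferase centre, by 0.67 (adjusted p = 2.46e-10), Mrpl18, which lies next to the central protuberance, by 0.66 (adjusted p = 3.99e-07) and Mrpl10, the base of the flexible stalk, by 0.62 (adjusted p = 6.46e-07). Mrpl53, mitochondria-specific, fell by 0.63 (adjusted p = 4.85e-08), and 695 of its 790 exonic bases overlap Gm42688 on the same strand, which averaged 1.20 CPM. Those that rose were led by Mrpl20, with a bacterial counterpart, at 22.7, 19.3, 19.7 and 20.2 CPM at baseline and 28.5, 27.3 and 30.5 at day 1. No library of the 2 groups overlapped, and the change was 0.49 ± 0.07 (adjusted p = 4.54e-06). Mrpl17 rose by 0.41 (adjusted p = 9.38e-06).

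**Figure D2:**
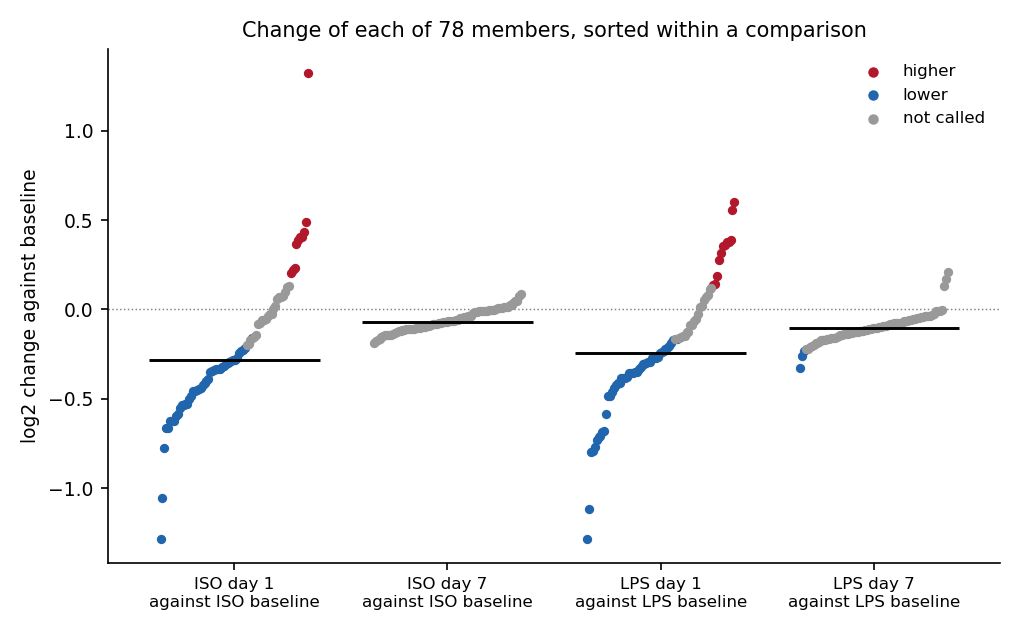
log2 change of each of the 78 members (points) at day 1 and day 7 of each agent against its own baseline. Points are sorted by change within a comparison and coloured by call (higher, lower or not called), and a line marks the median. At day 1 points spread from -1.29 to 1.33 with most below 0, and at day 7 they gather near 0.

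At LPS day 1, 47 members fell and 12 rose, and 19 were not called. Over all genes tested, 66.2% were called, 33% lower and 33.2% higher. The members' median was -0.24, beside 0.00 over all genes, and 12 of the 59 called changed by at least 1.5-fold and 2 by at least 2-fold. Here too the counts by fold over all genes are not given. In the small subunit 15 of 26 fell and 4 rose (median -0.21), and in the large subunit 31 of 51 fell and 8 rose (median -0.27). Members with a bacterial counterpart gave 9 lower and 2 higher of 16 in the small subunit and 17 lower and 6 higher of 30 in the large. Mitochondria-specific ones gave 6 lower and 2 higher of 10, and 14 lower and 2 higher of 21. Summed heart muscle markers were 65921 to 71297 CPM at LPS baseline and 43450 to 51298 at LPS day 1, without overlap. Neutrophil markers were at most 0.268 and 5.16 to 8.85, and macrophage markers 75.1 to 91.5 and 35.4 to 49.3. Singly, 6 of 8 heart muscle markers were called lower and 0 higher, and 2 of 5 macrophage markers lower and 1 higher. All 4 neutrophil markers tested were called higher. The part of these cells in the members' changes was not tested.

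Mrpl39 and Mrpl34 fell farthest after LPS. Mrpl39 measured 54.2, 47.3, 50.1 and 51.1 CPM at LPS baseline, 19.4, 18.6, 22.5 and 22.4 at day 1 and 47.7, 47.4, 44.9 and 50.01 at day 7. The day 1 libraries were below all others, and the change of -1.29 (adjusted p = 1.26e-12) equalled that after ISO to 2 decimals. Mrpl34 (chr8:71464959-71465747, plus strand), the counterpart of a small bacterial protein, measured 56.4, 56.04, 55.6 and 56.9 CPM at LPS baseline, 24.4, 19.7, 27.6 and 31.7 at day 1 and 57.96, 49.4, 54.7 and 51.7 at day 7. Its day 1 libraries varied among themselves but lay below every baseline library, with a change of -1.12 ± 0.09, or 2.17-fold lower (adjusted p = 4.73e-10). Other members that fell were Mrpl18 by 0.80 (adjusted p = 5.06e-09), Mrps35 by 0.79 (adjusted p = 3.12e-08), Mrps16 by 0.77 (adjusted p = 1.89e-09) and Mrpl49 by 0.73 (adjusted p = 5.18e-08). Mrpl3 fell by 0.71 (adjusted p = 1.31e-11), and so did Mrpl45 (adjusted p = 1.35e-06), a protein near the exit of the peptide tunnel. Mrpl18 exons overlap those of Tcp1 on the opposite strand over 141 bases, and Tcp1 itself was higher, by 0.29.

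The LPS day 1 rises were smaller. Mrps18b was again the highest, at 25.4, 23.2, 24.5 and 24.4 CPM at LPS baseline, 33.6, 39.9, 37.5 and 37.1 at day 1 and 26.9, 20.6, 21.1 and 21.4 at day 7. Day 1 stood above all other LPS libraries, and the change was 0.60 ± 0.08, or 1.52-fold (adjusted p = 3.24e-07). Mrpl52, a mitochondria-specific protein, measured 23.9, 22.4, 21.1 and 22.6 CPM at baseline and 35.0, 39.1, 29.97 and 28.8 at day 1. The groups did not overlap, with replicates 1 and 2 higher than 3 and 4, and the change was 0.56 ± 0.09 (adjusted p = 7.84e-06). Mrps10 gave 0.39 (adjusted p = 0.000185), Mrpl17 0.38 (adjusted p = 1.01e-05), Mrpl32, which is cleaved by a mitochondrial protease on import, 0.38 (adjusted p = 8.75e-05), and Mrpl20 0.36 (adjusted p = 0.000106). Mrpl33, with a bacterial counterpart, gave 0.31 (adjusted p = 0.00697), and without LPS day 1 replicates 1 and 2 this was 0.11 (adjusted p = 0.303). Of the S18 paralogues, Mrps18a fell by 0.23 (adjusted p = 0.00578) and Mrps18c gave 0.08 (adjusted p = 0.488).

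**Figure D3:**
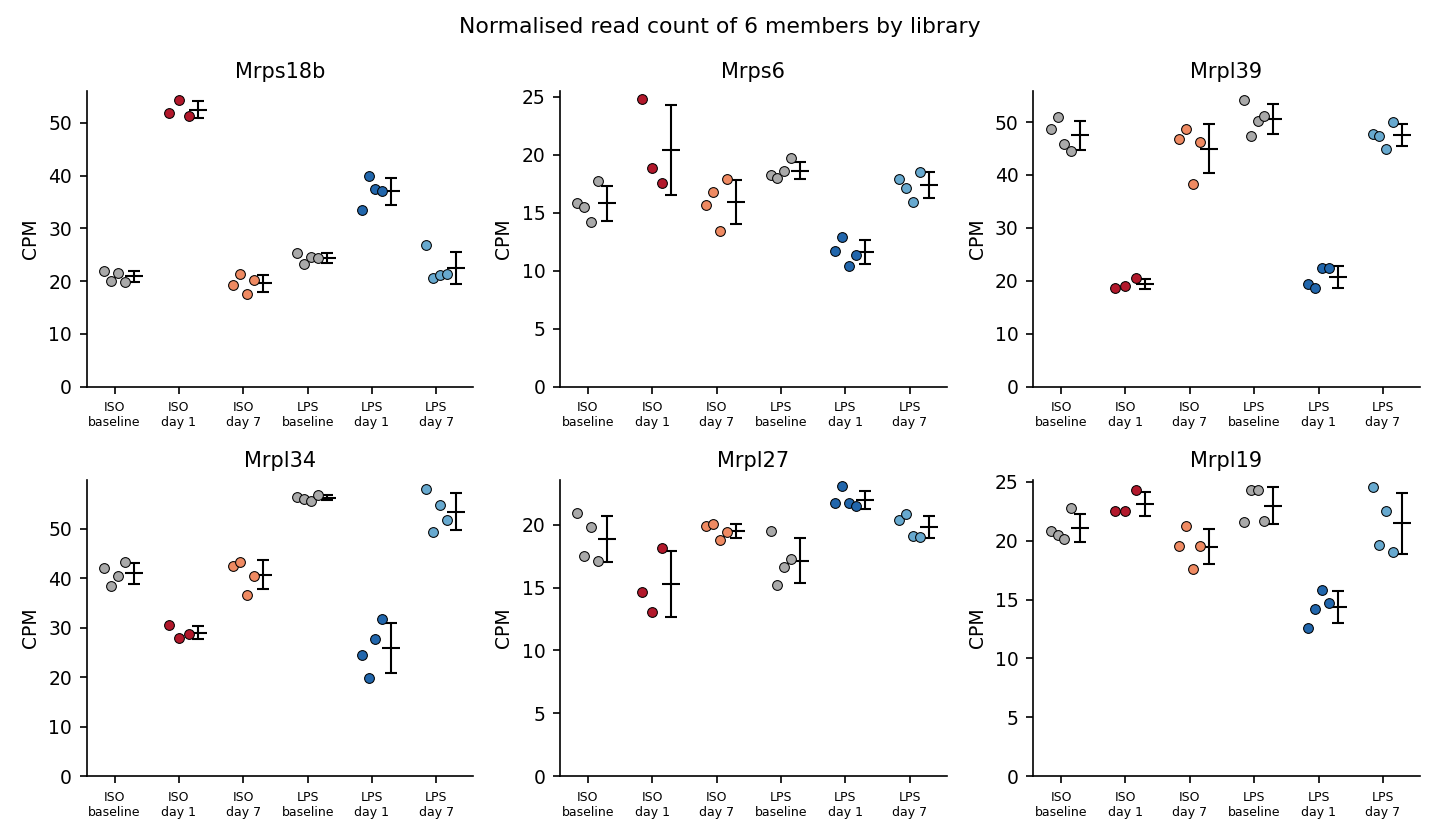
CPM of Mrps18b, Mrps6, Mrpl39, Mrpl34, Mrpl27 and Mrpl19 (vertical axis) in each library (points), by group, with mean and SD. Mrps18b is high at day 1 of both agents and Mrpl39 is low at both, while Mrps6, Mrpl27 and Mrpl19 are placed differently after ISO and after LPS.

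The 2 agents were compared at day 1, where they share no library. Of the members, 32 were lower after both, which is 69.6% of those lower after ISO and 68.1% of those lower after LPS. Over all genes the same shares were 67.3% and 66.96%. Another 6 were higher after both (Mrpl17, Mrpl20, Mrpl52, Mrps10, Mrps18b and Mrps34), which is 6 of the 10 higher after ISO and 6 of the 12 higher after LPS, beside 67.1% and 66.4% for all genes. The call of Mrpl52 after ISO was weak: its libraries were 22.5, 20.9, 20.003 and 19.3 CPM at baseline and 21.95, 26.5 and 24.4 at day 1, which overlap, and the change was 0.23 ± 0.10 (adjusted p = 0.0384). It was lost without ISO day 1 replicate 2 (adjusted p = 0.202) or 3 (0.0756), without ISO baseline replicate 2 (0.0564), 3 (0.0804) or 4 (0.0988), with effective lengths in the fit (0.0664), without the filter (0.0658) and with a minimum count of 1 (0.0638). Neither agent gave a call for 8 members: Mrpl30, Mrpl43, Mrpl48, Mrpl50, Mrpl54, Mrps18c, Mrps28 and Mrps30. They are 36.4% of the members not called after ISO and 42.1% of those not called after LPS, beside 51.7% and 52.4% for all genes. Across the 78 members the changes after ISO and LPS had a Pearson correlation of 0.59 and a Spearman correlation of 0.46, beside 0.63 and 0.65 across 15732 genes. These are descriptions across genes of the same libraries. The median difference in day 1 change, LPS minus ISO, was 0.05 for the members and 0.00 for all genes. By the test of that difference 16 members were higher and 14 lower after LPS relative to ISO, against 18.2% and 19.5% of all genes (37.6% together). Without ISO day 1 replicate 1 or 2, or LPS baseline replicate 3, the members higher were 10, 9 and 9.

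**Figure D4:**
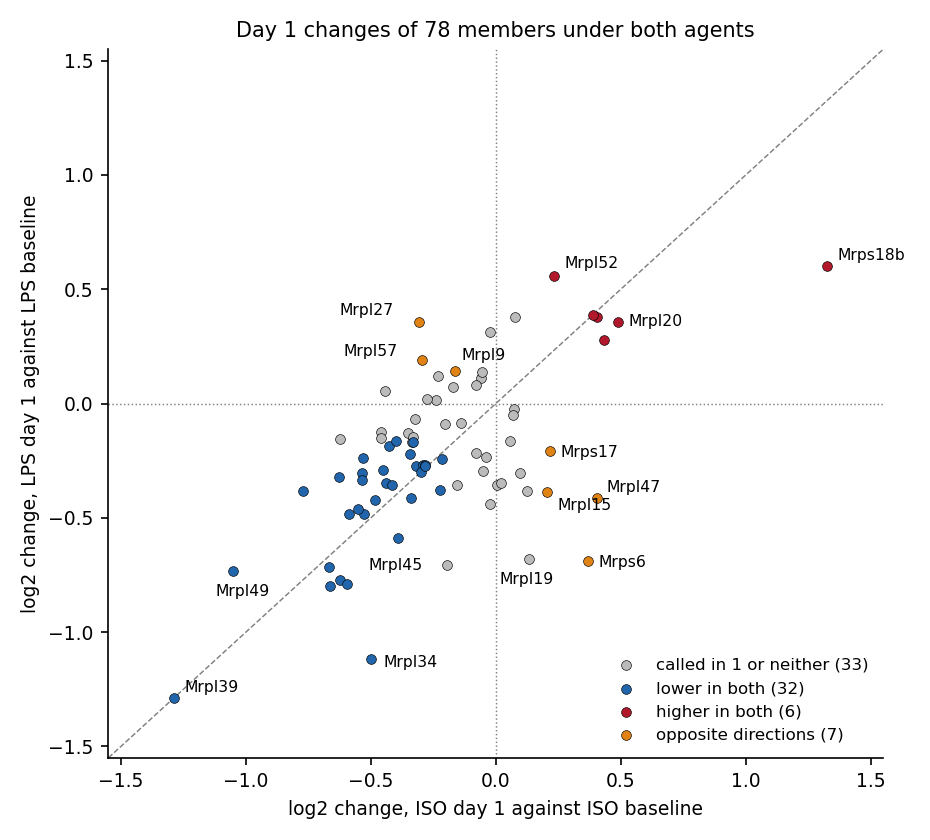
log2 change at ISO day 1 (horizontal axis) against log2 change at LPS day 1 (vertical axis), each against its own baseline, 1 point per member. Mrpl39 lies at -1.29 on both axes, and Mrps6 and Mrpl47 lie right of 0 and below 0.

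Mrps6 (chr16:92058270-92112227, plus strand), a small subunit protein with a bacterial counterpart, showed the largest difference between the agents among the members. It measured 15.8, 15.5, 14.2 and 17.8 CPM at ISO baseline and 24.8, 18.9 and 17.6 at ISO day 1, and 18.2, 18.0, 18.6 and 19.7 at LPS baseline and 11.7, 12.9, 10.4 and 11.4 at LPS day 1. The ISO groups overlapped slightly, and the LPS groups did not. Changes were 0.37 ± 0.11 after ISO (adjusted p = 0.00496) and -0.69 ± 0.10 after LPS (adjusted p = 3.62e-06), and their difference was -1.05 ± 0.15 (adjusted p = 6.76e-06). Without ISO day 1 replicate 1 the ISO change was 0.21 (adjusted p = 0.0965). Mrps6 exons overlap those of Gm49711 and of Slc5a3, an inositol transporter gene, on the same strand, over up to 305 bases. Slc5a3 gave 0.14 after ISO and -1.42 after LPS.

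For Mrpl19, with a bacterial counterpart, CPM were 20.8, 20.5, 20.1 and 22.8 at ISO baseline and 22.5, 22.5 and 24.3 at ISO day 1, and 21.6, 24.4, 24.3 and 21.7 at LPS baseline and 12.6, 14.2, 15.9 and 14.7 at LPS day 1. The LPS day 1 libraries lay below all others, whereas the ISO groups overlapped. The changes were 0.13 (adjusted p = 0.2) and -0.68 ± 0.08 (adjusted p = 2.65e-07), with a difference of -0.81 ± 0.12 (adjusted p = 1.68e-05). Its exons overlap those of Gcfc2 on the opposite strand over 1962 bases, and Gcfc2, at a mean of 1.12 CPM, gave -0.62 after LPS. Mrpl27, the counterpart of a bacterial protein that reaches the peptidyl transferase centre, went the other way. It measured 20.9, 17.6, 19.9 and 17.1 CPM at ISO baseline and 14.6, 13.1 and 18.2 at ISO day 1, and 19.5, 15.2, 16.6 and 17.3 at LPS baseline and 21.7, 23.1, 21.8 and 21.5 at LPS day 1. The ISO groups overlapped and the LPS groups did not. The changes were -0.31 ± 0.10 (adjusted p = 0.00728) and 0.36 ± 0.09 (adjusted p = 0.000942), with a difference of 0.67 ± 0.13 (adjusted p = 0.000278). Without ISO day 1 replicate 2 the adjusted p of the ISO change was 0.0842.

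Mrpl47, with a bacterial counterpart, measured 12.9, 12.3, 13.3 and 12.8 CPM at ISO baseline and 18.2, 15.0 and 17.7 at ISO day 1, and 11.9, 14.4, 13.2 and 13.3 at LPS baseline and 8.71, 6.92, 12.3 and 11.5 at LPS day 1. After ISO all libraries were higher, and after LPS replicates 1 and 2 were low while 3 and 4 reached the baseline range or just below it. The changes were 0.40 ± 0.13 (adjusted p = 0.0103) and -0.41 ± 0.13 (adjusted p = 0.00623), and the difference was -0.82 ± 0.18 (adjusted p = 0.00108). Without LPS day 1 replicates 1 and 2 the LPS change was -0.15 (adjusted p = 0.235), and with effective gene lengths in the fit -0.26 (adjusted p = 0.11). The exons of Mrpl47 overlap those of Ndufb5 and Actl6a on the opposite strand, over up to 616 bases. Mrpl34 also differed between the agents, by -0.61 ± 0.14 (adjusted p = 0.00102). Its ISO baseline libraries were 42.1, 38.4, 40.3 and 43.2 CPM and its ISO day 1 libraries 30.5, 27.8 and 28.7, a change of -0.50 (adjusted p = 0.00016) without overlap. The LPS baseline was itself higher than the ISO baseline, by 0.45 ± 0.09 (adjusted p = 0.01), so the day 1 levels of the 2 agents lie nearer to each other than the changes do.

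Mrps18b differed by -0.73 ± 0.11 (adjusted p = 1.92e-05), its rise being larger after ISO. For Mrps12 the difference was 0.50 ± 0.09 (adjusted p = 0.000232), since its LPS libraries, 29.6, 27.1, 29.3 and 30.2 CPM at baseline and 30.9, 30.9, 29.8 and 28.9 at day 1, overlapped and gave 0.05 (adjusted p = 0.477). Mrpl12, the stalk protein that contacts translation factors, gave 133, 123, 119 and 119 CPM at ISO baseline and 136, 128 and 140 at ISO day 1, and 128, 121, 117 and 113 at LPS baseline and 87.2, 101, 82.5 and 96.6 at LPS day 1. Its LPS day 1 libraries were below all others, with changes of 0.12 (adjusted p = 0.207) and -0.38 (adjusted p = 0.000196) and a difference of -0.51 ± 0.12 (adjusted p = 0.00137). Mrpl45 gave -0.19 (adjusted p = 0.112) after ISO, and its difference was -0.51 ± 0.14 (adjusted p = 0.00679). For Mrpl15, with a bacterial counterpart, the difference was -0.59 ± 0.12 (adjusted p = 0.000449).

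Counting calls in each direction, Mrps6, Mrps17, Mrpl15 and Mrpl47 were higher after ISO and lower after LPS, and Mrpl9, Mrpl27 and Mrpl57 were lower after ISO and higher after LPS. Of these 7, each lost at least 1 of its calls in an alternative analysis. Over all 15732 genes tested, 418 were higher after ISO and lower after LPS, and 439 went the opposite way. Among the 78 members these counts were 4 and 3, and whether the shares differ was not tested. Mrpl57, mitochondria-specific, gave -0.29 after ISO (adjusted p = 0.000966) and 0.19 after LPS (adjusted p = 0.0146), and with effective gene lengths in the fit the ISO change was -0.13 (adjusted p = 0.144). The LPS baseline of Mrpl57 was itself called lower than its ISO baseline (given below). Its day 1 levels therefore lie nearer to each other than its changes do. Mrps17 gave 0.22 (adjusted p = 0.00381) and -0.21 (adjusted p = 0.00357), and without LPS day 1 replicates 3 and 4 the adjusted p after LPS was 0.0685. Mrpl9 gave -0.16 (adjusted p = 0.0271) and 0.14 (adjusted p = 0.0324), and Mrpl15 gave 0.21 (adjusted p = 0.0436) and -0.38 (adjusted p = 0.000279).

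By day 7 few members differed from baseline. At ISO day 7 edgeR called 0 of 78 members, beside 0% of all genes higher and 0.00636% lower. DESeq2 called 0 as well, and 5 members had an unadjusted p under 0.05, all with a negative change: Mrpl36, Mrpl40, Mrpl41, Mrps5 and Mrps31. The members' median was -0.07. At LPS day 7, 4 members fell and 0 rose, beside 3.13% and 5.96% of all genes (9.1% in either direction), and 21 had an unadjusted p under 0.05. DESeq2 called 6 lower and 0 higher. The shares of all genes under DESeq2 and by unadjusted p are not given here, for either agent. The members' median was -0.10 and that of all genes 0.00. Markers of other cells moved at the same time. All 5 macrophage markers were called higher (sums of 131 to 159 CPM, against 75.1 to 91.5 at LPS baseline), as were all 4 tested T and natural killer cell markers (3.10 to 4.39, against 0.237 to 0.362) and all 4 proliferation markers (12.2 to 46.7, against 2.33 to 7.35). Heart muscle markers summed to 62698 to 72575, overlapping the baseline, and 1 of 8 was called lower. Their part in the members' values was not tested. With scaling by library totals or with TPM the median of all genes moved up by 0.14 to 0.20, and the members' median was then 0.0558 to 0.10.

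Mrpl28, with a bacterial counterpart, had the largest LPS day 7 change among the called members. It measured 63.8, 64.0, 68.0 and 63.5 CPM at LPS baseline and 48.7, 54.1, 52.7 and 50.7 at day 7. The groups did not overlap, and the change was -0.33 ± 0.10 (adjusted p = 0.0316). Mrpl50, mitochondria-specific, gave -0.26 ± 0.08 (adjusted p = 0.0476), Mrpl36 -0.23 ± 0.07 (adjusted p = 0.0439) and Mrps7, at the head of the small subunit, -0.17 ± 0.05 (adjusted p = 0.0328). Without any 1 library of the LPS baseline or day 7 groups, 0 to 3 members were called. With effective lengths in the fit all 4 calls were lost with little change in size, at -0.33 for Mrpl28, -0.25 for Mrpl50, -0.23 for Mrpl36 and -0.18 for Mrps7. They were also lost with scaling by library totals, where the changes were -0.17, -0.10, -0.0718 and -0.0140 in that order, and with log2(TPM + 0.1), where they were -0.13, -0.0523, -0.0234 and 0.0199.

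Against day 1 of the same agent, 38 members were higher and 12 lower at ISO day 7 (median 0.17), beside 33.2% and 31.9% of all genes, 65.1% together (median 0.03). For LPS, 34 were higher and 14 lower (median 0.13), beside 33.9% and 32.5% of all genes, 66.4% together (median 0.01). With library totals or either TPM setting this LPS comparison gave 53 higher and 7 to 8 lower, with medians of 0.32 to 0.33, and the median of all genes was 0.14 to 0.23. These comparisons share the day 1 libraries with those against baseline. The day 7 changes of LPS and ISO differed for 0 members by edgeR's test, beside 0.362% of all genes higher and 0.0953% lower (0.458% together), with 1 member at an unadjusted p under 0.05, and DESeq2 called 0.

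The 2 untreated groups were also compared with each other. At LPS baseline 1 member was higher than at ISO baseline and 2 were lower, beside 0.477% and 0.737% of all genes (1.21% together). The higher one was Mrpl34, described above, for which leaving out ISO baseline replicate 2 gave an adjusted p = 0.0512, and log2(TPM + 0.1) an adjusted p = 0.0715. The lower ones were Mrpl57 at -0.33 (adjusted p = 0.00873), which was -0.07 with effective lengths in the fit, and Mrpl53 at -0.28 (adjusted p = 0.0202). The Mrpl53 call was lost with library totals (adjusted p = 0.0871), no filter (0.0799), effective lengths (0.0973) and TPM (0.451 and 0.386), and without ISO baseline replicate 1 (0.0892) or 2 (0.0679) or LPS baseline replicate 1 (0.0624), 3 (0.0804) or 4 (0.0605).

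In the genome the members lie on 17 chromosomes, with 11 on chromosome 11. A coding gene starts on the other strand within 1000 bases upstream, head to head, for 18 of 78 (23.1%), beside 6.77% of coding genes. Pairs whose start regions overlap, such as Mrps11 and Mrpl46, are left out of both shares. Of 17 pairs with both genes tested, both were called in 7 at ISO day 1 and in 7 at LPS day 1. For each agent 6 of these 7 moved in the same direction. Calls were frequent among single genes, reaching 65.7% of all genes with ISO and 66.2% with LPS. Other gene pairs were not counted, so these numbers do not show whether head-to-head genes move together more than other genes. Some partners were called beside a member that was not, such as Apba3 (-0.83) beside Mrpl54 after LPS. Mrps27 and Ptcd2, 81 bases apart, were both lower, with Ptcd2 at -0.96 after ISO and -1.01 after LPS. Mrps34 and Eme2, 29 bases apart, were both higher, with Eme2 at 0.53 after each agent. The start of Mrps18b lies 45 bases from that of Ppp1r10, a phosphatase regulatory subunit, which rose by 1.01 ± 0.18 after ISO and gave 0.29 (adjusted p = 0.156) after LPS. Mrpl49 and Fau, 59 bases apart, were the pair called in opposite directions. Fau, which encodes a cytosolic ribosomal protein fused to a ubiquitin-like one, rose by 0.43 after ISO and 0.38 after LPS while Mrpl49 fell.

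The stretch between this pair that no exon covers, chr19:6057786-6057843 on the minus strand (the strand of Mrpl49) in RefSeq's GRCm38.p6, is shown because the 2 genes share it and moved in opposite directions. It holds none of the motifs searched. The promoter window searched for Mrpl49, described below, does hold AAGATGG and TGACGTCA, but not within this stretch.
Mrpl49 and Fau: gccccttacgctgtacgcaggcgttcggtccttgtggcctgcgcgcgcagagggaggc

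RefSeq promoter windows, 250 bases before to 50 bases after a start, were found for 69 members (75 windows). Short motifs were searched as exact letters on both strands. CCGGAAG, the core bound by ETS factors such as GABP, was in 34.7% of member windows and in 8.86% of 32851 windows of the same length. GCATGCGC, for NRF1, was in 10.7% and 2.71%, and AAGATGG, for YY1, in 17.3% and 6.34%. The E-box CACGTG was in 9.33% and 7.15% of windows, but 3 overlapping windows of Mrpl2 hold the same site, and counted by gene it was in 7.25% of members and 8.09% of all genes. TGACGTCA, bound by CREB, was in 2.67% and 1.79% of windows, and TATAAA in 6.67% and 13.6%. TCAAGGTCA, for the ERR receptors, was in 0 member windows and 0.423% of all windows. Of the motifs of inflammatory signalling, AAANNGAAA, part of the element bound by interferon regulatory factors, was in 9.33% and 10.6%, and TTCNNNGAA, for STAT factors, in 8.0% and 8.30%. Matches of different motifs did not overlap in member windows. Member windows had a median GC content of 58.7%, beside 52.7% for all windows. Among members with a window, CCGGAAG was in 3 of 5 that were higher after both agents and in 9 of 29 that were lower after both. A match is a description of letters.

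Upstream stretches that no exon covers are shown for Mrpl34, which fell after both agents and farther after LPS, and for 3 members called higher after both (Mrpl52 weakly after ISO), with the matched letters in capitals. Mrpl34 is at chr8:71464676-71464925 on the plus strand, with CCGGAAG. Mrpl52 is at chr14:54426659-54426908 on the plus strand, with AAGATGG and the reverse complement of CCGGAAG. Mrpl20 is at chr4:155802628-155802877 on the plus strand, with CACGTG and 2 overlapping reverse complements of AAANNGAAA. Mrpl17 is at chr7:105811100-105811337, read on the minus strand, with CCGGAAG. The windows searched also hold TTCNNNGAA for Mrpl34 and GCATGCGC for Mrpl17, but not within the bases printed.
Mrpl34: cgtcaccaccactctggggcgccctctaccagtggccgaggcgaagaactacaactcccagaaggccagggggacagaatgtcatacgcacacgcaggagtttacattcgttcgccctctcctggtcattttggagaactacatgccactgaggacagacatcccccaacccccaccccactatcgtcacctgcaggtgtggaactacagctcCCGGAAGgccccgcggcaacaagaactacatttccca
Mrpl52: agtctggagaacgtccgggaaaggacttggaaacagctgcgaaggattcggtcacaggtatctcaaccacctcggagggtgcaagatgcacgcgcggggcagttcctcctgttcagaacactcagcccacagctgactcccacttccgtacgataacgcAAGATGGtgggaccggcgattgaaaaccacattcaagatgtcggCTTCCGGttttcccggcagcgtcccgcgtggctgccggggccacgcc
Mrpl20: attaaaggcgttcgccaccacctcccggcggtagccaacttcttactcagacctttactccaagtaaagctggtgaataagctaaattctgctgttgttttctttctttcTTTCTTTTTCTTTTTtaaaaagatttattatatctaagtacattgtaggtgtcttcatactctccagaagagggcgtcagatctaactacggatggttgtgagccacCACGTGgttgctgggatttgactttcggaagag
Mrpl17: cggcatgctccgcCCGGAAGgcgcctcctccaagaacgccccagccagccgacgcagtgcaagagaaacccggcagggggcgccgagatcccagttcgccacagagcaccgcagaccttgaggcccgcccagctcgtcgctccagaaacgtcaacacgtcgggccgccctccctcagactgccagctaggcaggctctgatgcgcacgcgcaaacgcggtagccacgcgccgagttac

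The other genes of mitochondrial translation were read from fixed lists. Of 17 translation factors, 14 fell and 1, Guf1, rose at ISO day 1 (median -0.60), and 12 fell and 0 rose at LPS day 1 (median -0.31). Pdf, which removes the formyl group from new peptides, gave -0.93 and -0.57, Taco1, an activator of cytochrome oxidase translation, -0.90 and -0.92, and Tufm, the elongation factor that delivers tRNA, -0.82 and -0.40. Of 20 mitochondrial aminoacyl-tRNA synthetases, 13 fell and 1, Mars2, rose at ISO day 1 (median -0.54), and 15 fell and 0 rose at LPS day 1 (median -0.34). Aars2 gave -0.87 and -0.98. Of 28 ribosome assembly genes, 17 fell and 5 rose after ISO (median -0.35), and 15 fell and 6 rose after LPS (median -0.23), with Mettl17, an assembly factor of the small subunit, at -1.86 and -1.82. Of 5 mitochondrial ribosome proteins under other symbols, 3 fell after ISO and 1 after LPS, and 0 rose. Ptcd3 gave -0.78 and -0.59, and Dap3 -0.32 and -0.12.

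Outside this system the proteins of the cytosolic ribosome moved the other way. Of 76 such genes, 74 rose and 0 fell at ISO day 1 (median 0.70), and 76 rose at LPS day 1 (median 0.55). The 13 messages that mitochondrial DNA encodes, which the mitochondrial ribosome translates, gave 2 lower and 0 higher at ISO day 1 (median -0.16): mt-Nd3 at -0.42 and mt-Nd6 at -0.29. At LPS day 1 edgeR called 0 of the 13 (median -0.12), with 0 at an unadjusted p under 0.05, and at LPS day 7 it called 7 lower and 0 higher (median -0.34). Of 10 nuclear regulators of mitochondrial genes, 4 rose after each agent: Myc (3.34 and 3.48), Pprc1 (1.52 and 0.91), Gabpb1 (0.74 and 0.65) and Nrf1 (0.65 and 0.53). Esrrg, an estrogen-related receptor, gave -1.20 after ISO and -2.14 after LPS. Esrra, a related receptor, gave -0.19 (adjusted p = 0.102) after ISO and -1.44 after LPS, and Ppargc1a, a coactivator of both, -0.39 (adjusted p = 0.118) and -0.73 (adjusted p = 0.00267).

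**Figure D5:**
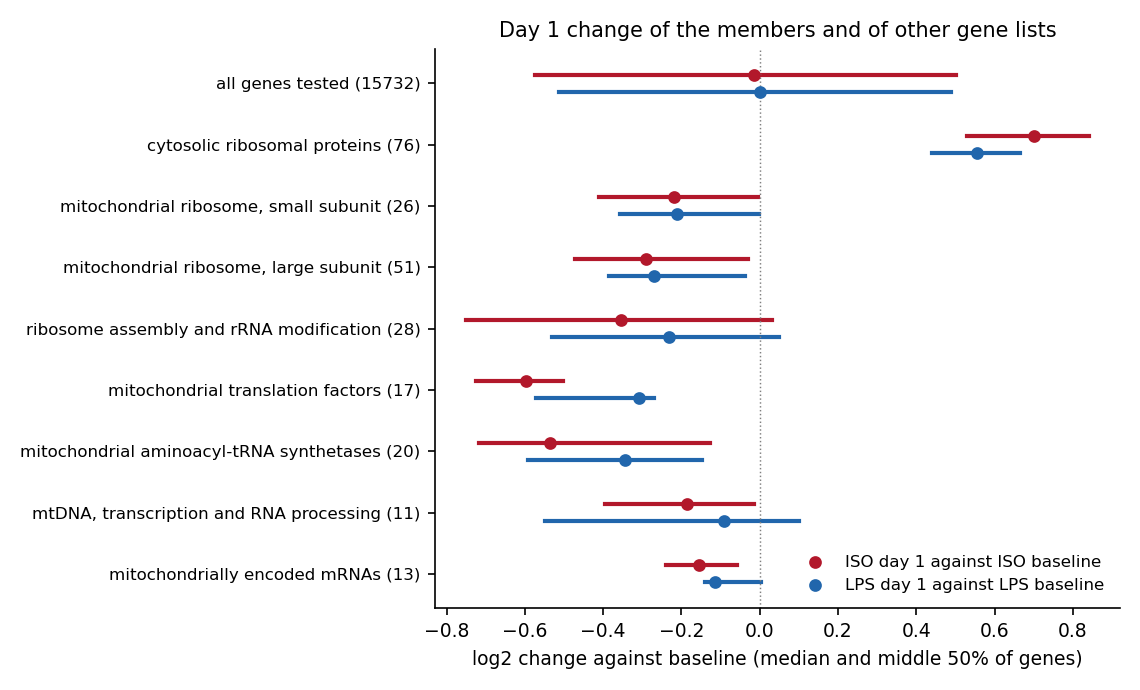
Median log2 change of each gene list (points, horizontal axis) at day 1 of each agent against its own baseline. Lines run from the lower to the upper quartile of the genes in a list. The small and the large subunit are drawn as separate lists, with all genes tested for reference. Cytosolic ribosomal proteins lie at 0.70 and 0.55, and both subunits have negative medians after both agents.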

How the data were processed

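Per the file headers, the authors deposited for each library estimated counts of reads per gene, TPM and the effective gene length. Per the submitters' processing notes, bcl2fastq, DRAGEN, edgeR, limma and the mm10 build were used. Their roles and versions, the annotation release and whether counting used strand were not given in the sources used here. Of all deposited estimated counts 9.50%, and of the members' 30.2%, were not whole, so they were rounded before testing. Symbols and gene positions are those of GENCODE M21 (GRCm38), matched for 55227 of 55487 identifiers, and promoter sequences are RefSeq's for GRCm38.p6. No protein sequences were used.

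Counts were tested across all genes with edgeR 4.0.16 under R 4.3.3, with TMM scaling, filterByExpr by group at a minimum count of 10, and glmQLFit and glmQLFTest on 6 group means without covariates. The tests are two-sided, with Benjamini-Hochberg adjustment over 15732 genes and calls under 0.05. The SE was derived from the F value, and the common biological coefficient of variation was 11.0%. Since the labels describe separate mice, p-values measure the spread between animals and their libraries. The tests were tried on simulated counts with far fewer genes changed than were called at day 1. The outcome is not given here, and no result rests on it. Alternatives were DESeq2 1.42.0, limma 3.58.1 on log2(TPM + 0.1) and log2(TPM + 1), library totals, effective-length offsets, no filter, a fit of the groups compared alone, a replicate block and leaving out each library. Leaving out LPS day 1 replicates 1 and 2, or 3 and 4, was added after seeing the data. Python 3.11.15 with pandas 2.3.3 and scipy 1.17.1 did the rest.

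Replicate numbers were checked for pairing. Deviations of same-numbered libraries correlated between -0.118 and 0.0820, so the numbers were not taken to pair animals.

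The named members are, per comparison, up to 8 called with the largest change in each direction (up to 10 for differences between the agents, up to 6 between baselines), those called in opposite directions, those with the 6 highest and 6 lowest mean TPM, the S18 paralogues and Mrps36. From other lists up to 4 genes with the smallest adjusted p in a described comparison were eligible; Dap3, the nuclear regulators shown beyond these and the head-to-head partners were chosen after their values were seen. The members and all lists were chosen with earlier results of these data known.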

Additional observations from a re-analysis of the deposited data

Results flagged for a closer look

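In the groups of 4 libraries, the 43 members named by rule, many of them for large changes, and the members' summed share of reads and summed TPM were tested for a library standing apart from its group by Dixon's 95% criterion. Of these 225 cases 18 (8.0%), all of them single members, had such a library, where chance alone gives about 1 in 20. The other members were not tested. In ISO day 7 replicate 3, CPM were low for Mrpl10 (30.5, others 39.3 to 40.4), Mrps34 (38.6, others 46.3 to 46.8), Mrps35 (50.8, others 60.8 to 62.8), Mrps21 (53.5, others 62.4 to 63.7) and Mrpl30 (63.7, others 69.4 to 70.2). This is the library with summed fibroblast markers of 1452 CPM. In LPS day 7 replicate 1, CPM were high for Mrpl53 (25.4, others 22.7 to 22.8), Mrps18b (26.9, others 20.6 to 21.4), Mrps35 (62.5, others 50.4 to 51.5) and Mrpl1 (18.8, others 17.7 to 17.9).

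Elsewhere, Mrps7 (56.2, others 51.9 to 52.3) and Mrps18a (44.5, others 38.2 to 39.2) were high in LPS day 1 replicate 2, and Mrpl36 was low in LPS day 1 replicate 3 (13.3, others 15.97 to 16.1). At LPS baseline, replicate 3 was low for Mrpl36 (18.3, others 20.4 to 20.7) and high for Mrpl28 (68.0, others 63.5 to 64.0), and replicate 1 was high for Mrpl17 (29.04, others 25.9 to 26.2). The remaining values were Mrpl3 in ISO baseline replicate 1 (46.8, others 47.9 to 48.0) and LPS day 7 replicate 3 (48.8, others 46.7 to 47.0), and Mrps16 in ISO day 7 replicate 1 (24.2, others 25.3 to 25.4).

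In 10 members the day 1 change differed between the agents by the test of the difference itself. LPS minus ISO, on the log2 scale, was 0.50 for Mrps12 and 0.67 for Mrpl27. It was -0.51 for Mrpl12, -0.51 for Mrpl45, -0.59 for Mrpl15, -0.61 for Mrpl34, -0.73 for Mrps18b, -0.81 for Mrpl19, -0.82 for Mrpl47 and -1.05 for Mrps6. They are the members with the largest called differences of the 30 called.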

How the results depend on the processing

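At day 1 of both agents the counts of members called stayed within 1.5 times those reported in every alternative run. The ISO day 1 median was -0.21 with either TPM setting. At LPS day 7, members higher were 3 with library totals and both TPM settings, and members lower were 0 with those and with effective lengths, 1 without the filter and 13 with the fit of the groups compared alone, while the median turned to 0.0558 with library totals and 0.10 with both TPM settings, where Mrps7 was 0.0199 and 0.0195. LPS day 7 against day 1 gave 53 higher with library totals and both TPM settings, with 8, 7 and 7 lower and medians of 0.32, 0.33 and 0.32. For the day 1 difference between agents, members higher were 7 without the filter, 10 with effective lengths, 7 with log2(TPM + 0.1), 9 with log2(TPM + 1) and 10 without LPS day 1 replicates 1 and 2, and the median was -0.01505 and -0.0146 with TPM. The day 7 difference had a median of 0.0779 with library totals and 0.12 with both TPM settings. Between baselines, members higher were 2 with library totals and effective lengths, 5 with the groups compared alone and 4 with log2(TPM + 1), members lower were 1 with library totals or no filter and 0 with effective lengths and both TPM settings, and the median was 0.10 with both TPM settings. The cause of these moves was not tested. Counts under the alternatives are given without the share of all genes called in the same setting. They do not show whether the members moved apart from all genes.

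Leaving out each library in turn gave ISO day 1 8 to 10 higher, 40 to 47 lower and medians of -0.31 to -0.22, and ISO day 7 0 calls and -0.09 to -0.02. LPS day 1 gave 9 to 13, 44 to 52 and -0.28 to -0.22, and LPS day 7 0, 0 to 3 and -0.13 to -0.09. ISO day 7 against day 1 gave 33 to 44, 9 to 13 and 0.14 to 0.24, and LPS day 7 against day 1 gave 28 to 35, 12 to 16 and 0.09 to 0.15. The difference between agents gave 9 to 19, 12 to 14 and 0.01 to 0.07 at day 1, and 0 calls and -0.09 to -0.02 at day 7. Between baselines it gave 0 to 1, 1 to 2 and -0.00390 to 0.0416.

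With the replicate number as a block, members higher and lower were 10 and 47 at ISO day 1, 12 and 47 at LPS day 1 and 0 and 4 at LPS day 7. The numbers were not taken to pair the animals. Of 60 single-member results, 40 kept their call in all 32 alternatives and 20 lost it in at least 1. Overlapping exons limit the members that have them, Mrps18b included, since the strand setting is unknown here. Not every overlap is printed above. Others are in Mrpl3, Mrpl9, Mrpl10, Mrpl12, Mrpl27, Mrpl33, Mrpl49, Mrps7 and Mrps18c, among further members.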
